A study of Mus musculus with 21 samples.

Results

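The MHC class II genes described here are H2-Aa, H2-Ab1, H2-Eb1, H2-DMa, H2-DMb1, H2-Oa, Cd74 and Ciita. These 8 genes were listed by symbol, with earlier results of these data known. Each matched 1 gene in each of 3 deposited mouse expression tables, among 54532 genes in the CCl4 liver table, 54532 in the hepatocyte table and 34280 in the TAA liver table. The study, by its title, concerns STING, hepatocyte pyroptosis and the NLRP3 inflammasome in liver fibrosis, and it holds 21 RNA-seq libraries in 7 groups of 3. In the CCl4 table, livers labelled Sting knockout and wild-type livers had received intraperitoneal carbon tetrachloride (CCl4), a hepatotoxin that leads to fibrosis, and wild-type control livers had received oil. The sample labels give 6 weeks for these 3 groups, whereas the design text gives 8 weeks for CCl4. In the TAA table, livers in which Nlrp3 was deleted in hepatocytes and wild-type livers had both received the hepatotoxin thioacetamide (TAA) for 8 weeks. In the hepatocyte table, wild-type primary hepatocytes were given lipopolysaccharide (LPS, 1 µg/mL, 6 h) and nigericin (10 µM, 30 min), with or without the NLRP3 inhibitor MCC950 (10 µM, added 2 h earlier). The labels give no Sting allele, no promoter for the hepatocyte deletion, and no age, sex or strain. Livers of mice without TAA, oil-treated Sting knockout livers and unstimulated hepatocytes were not analysed here, so no value below compares TAA with an untreated liver.

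MHC class II molecules display peptides from the endosomal route to CD4 T cells. H2-Aa and H2-Ab1 encode the alpha and beta chains of the mouse I-A molecule, and H2-Eb1 encodes the beta chain of I-E. Cd74 encodes the invariant chain, which fills the peptide groove and guides new molecules to endosomes. H2-DMa and H2-DMb1 encode the chains of H2-M, which exchanges the remnant of the invariant chain for peptide, and H2-Oa encodes a chain of H2-O, an inhibitor of H2-M. Ciita encodes the transactivator that is recruited to class II promoters by the RFX and NF-Y complexes, and interferon-gamma induces it in many cells. In liver, dendritic cells, B cells and macrophages including Kupffer cells are the usual class II-expressing cells, whereas resting hepatocytes are known to express little.

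Of the 8 genes, 5 had promoters in the RefSeq table (GRCm38.p6, the mm10 build of the deposited coordinates), each covering 250 bases before to 50 after a start site. These were H2-Aa, H2-Eb1, H2-DMb1, H2-Oa and H2-DMa, all on chromosome 17. The module searched for was GNAAC, the core letters of the X box bound by RFX, followed after a gap of 20 to 35 bases by TGATTGG, the letters of the Y box bound by NF-Y. It was found in 4 of the 5, and these stretches are shown because the shared spacing is visible in them. They run 5′ to 3′ on each gene's own strand from 140 to 31 bases before the start site, with the X and Y letters in capitals.
H2-Aa (chr17:34287854-34287963, minus strand): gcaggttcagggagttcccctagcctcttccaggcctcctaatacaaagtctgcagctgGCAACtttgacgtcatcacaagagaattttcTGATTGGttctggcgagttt
H2-Eb1 (chr17:34305727-34305836, plus strand): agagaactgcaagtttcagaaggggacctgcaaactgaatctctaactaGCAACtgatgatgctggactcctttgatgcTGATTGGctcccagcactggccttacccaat
H2-DMb1 (chr17:34153051-34153160, plus strand): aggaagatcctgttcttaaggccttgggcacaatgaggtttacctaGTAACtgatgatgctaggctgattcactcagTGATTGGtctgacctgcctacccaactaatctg
H2-Oa (chr17:34092239-34092348, plus strand): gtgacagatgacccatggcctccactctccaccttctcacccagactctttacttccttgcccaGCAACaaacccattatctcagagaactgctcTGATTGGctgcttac

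The gap between the X and Y letters was 26 bases in H2-Aa, H2-DMb1 and H2-Oa and 25 bases in H2-Eb1. Over all 32851 promoter windows of that length, searched on both strands, 0.426% held the module. The short GNAAC alone was in 84.8% of the windows and TGATTGG alone in 7.82%. The CRE letters TGACGTCA, present in 1.79% of windows, lay between X and Y in H2-Aa. Both RefSeq windows of H2-DMa held no such module, and they lie upstream of the start that the CCl4 table gives for that gene (chromosome 17, 34135182). For H2-DMb1 the deposited start (34153072) lies upstream of the RefSeq start, so its X and Y letters fall inside the gene as deposited. The H2-Oa stretch also ends just past the deposited start of that gene (34092340). Among 4 other class II genes of the H2 region, 3 had a promoter in the table, and H2-Ob and H2-Eb2 held the module while H2-DMb2 did not. The letters are a description of these windows and not a measurement of binding.

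Levels in the CCl4 and hepatocyte tables are FPKM, fragments per gene length and a library size that no label or header defines. The library size that the deposited values imply was 82.3% to 122% of recovered reads in the libraries labelled Sting knockout, 109% to 117% in wild-type CCl4 libraries and 74.4% to 91.2% in oil libraries. It was 99.7% to 106% in the hepatocyte table. Each CCl4 table library held 14353483 to 16684832 reads recovered from FPKM, and each hepatocyte library 14883711 to 17157586. Counts per TAA library were 32096879 to 68913793. The targeted genes were examined first. Sting1, which encodes STING and is named Tmem173 in the CCl4 table, had FPKM values of 3.42, 1.98 and 5.28 under the Sting knockout label. Wild-type livers after CCl4 had 6.10, 5.15 and 4.74 FPKM of it, so the groups overlapped. Under the Sting knockout label it was called higher than oil (log2 fold change 1.00, adjusted p = 0.0291, limma). The titles of these libraries also carry codes beginning with SWT that the labels do not explain, and the label is used below as a label only. In the libraries labelled with hepatocyte Nlrp3 deletion, Nlrp3 had 23, 105 and 83 counts. The wild-type TAA libraries had 36, 24 and 28 counts of it, and these counts are not scaled to library size. Scaled to library size with TMM factors (CPM), its mean was 1.00 with the deletion and 0.827 in wild type, and the groups overlapped. Its log2 fold change was 0.28 ± 0.63 (SE, adjusted p = 0.797, edgeR). These are whole-liver levels, and the part of cells other than hepatocytes in them was not tested. Replicate 1 of wild-type CCl4 stood apart from its group for most of the class II genes, and results that rest on it are given with and without it. Mitochondrially encoded genes took 5.63% to 12.5% of counts in the Nlrp3 deletion libraries and 27.8% to 34.7% in the wild-type TAA libraries, and their part in the TAA results was not tested.

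The class II genes were higher after CCl4 than after oil in wild-type liver. Every wild-type CCl4 library lay above every oil library for each of the 8 genes, and the mean was between 2.66-fold (H2-Oa) and 6.32-fold (Ciita) that of oil. Without wild-type CCl4 replicate 1 these ratios were between 1.83 (Cd74) and 2.98 (H2-DMb1), with 2.97 for Ciita. Of the 6 genes that passed the filter of a mean of at least 1 FPKM, 5 were called higher and 0 lower by limma at an adjusted p under 0.05. Over all 11511 genes tested, 9.19% were called higher and 6.15% lower. The median log2 fold change of the 6 was 1.63, against -0.08 over all genes tested. The groups were separated in that direction for 16.6% of all genes tested. In bulk tissue, fewer cells of a type and less RNA per cell cannot be told apart, and neither can more cells and more RNA per cell.

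Among the peptide-presenting chains, H2-Aa (ENSMUSG00000036594, chromosome 17, 34282744 to 34287827, mm10) was at 103, 34.8 and 63.8 FPKM after CCl4, against 17.4, 18.4 and 19.1 FPKM after oil. H2-Ab1 (ENSMUSG00000073421, chromosome 17, 34263209 to 34269418) was at 127, 35.8 and 45.3 FPKM after CCl4, against 22.0, 21.2 and 15.2 FPKM after oil. H2-Eb1 (ENSMUSG00000060586, chromosome 17, 34305877 to 34316199) was at 147, 47.6 and 62.5 FPKM after CCl4, against 22.4, 22.6 and 22.5 FPKM after oil. For these 3 genes the oil libraries were close together, replicate 1 was the highest CCl4 library and replicate 2 the lowest, and the groups did not overlap. On the log2(FPKM + 1) scale the limma fold changes were 1.69 ± 0.36 for H2-Aa (SE, adjusted p = 0.0109), 1.58 ± 0.47 for H2-Ab1 (adjusted p = 0.0465) and 1.71 ± 0.41 for H2-Eb1 (adjusted p = 0.0195). Fold changes on this scale understate those of low genes.

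Cd74 (ENSMUSG00000024610, chromosome 18, 60803848 to 60812646) had the highest level of the 8 genes in each of the 9 libraries of the CCl4 table. It was at 467, 137 and 142 FPKM after CCl4, against 76.9, 85.6 and 67.1 FPKM after oil. The groups did not overlap, but the log2 fold change of 1.45 ± 0.47 did not pass limma's threshold (adjusted p = 0.0626). It passed with TMM scaling (adjusted p = 0.0421, limma) and with edgeR on recovered reads (adjusted p = 0.0233), and its adjusted p ranged from 0.0233 to 0.172 over the 11 alternatives.

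The loading genes were at lower levels and moved in the same direction. H2-DMa (ENSMUSG00000037649, chromosome 17, 34135182 to 34139101) was at 19.1, 5.97 and 5.28 FPKM after CCl4, against 1.56, 3.68 and 2.23 FPKM after oil. H2-DMb1 (ENSMUSG00000079547, chromosome 17, 34153072 to 34160230) was at 23.1, 7.41 and 6.27 FPKM after CCl4, against 2.43, 2.88 and 1.58 FPKM after oil. For both chains of H2-M, replicate 1 was far above the other CCl4 libraries, which still lay above the oil libraries. The limma log2 fold changes were 1.5 ± 0.43 for H2-DMa (adjusted p = 0.0390) and 1.81 ± 0.39 for H2-DMb1 (adjusted p = 0.0112).

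H2-Oa (ENSMUSG00000024334, chromosome 17, 34092340 to 34095234) did not pass the filter. It was at 1.05, 0.479 and 0.655 FPKM after CCl4, from 25, 12 and 16 reads. After oil it was at 0.200, 0.407 and 0.214 FPKM, from 4, 7 and 3 reads. The groups did not overlap, with an exact permutation p of 0.1, the smallest that 3 against 3 libraries can give.

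Ciita (ENSMUSG00000022504, chromosome 16, 10480059 to 10528418) was also under the filter. It was at 3.32, 0.698 and 0.818 FPKM after CCl4, against 0.296, 0.232 and 0.236 FPKM after oil. The oil libraries were close together, and replicate 1 after CCl4 was far above the other CCl4 libraries. The exact permutation p was 0.1. With no filter, limma on log2(FPKM + 1) gave a log2 fold change of 0.92 that was not called (adjusted p = 0.171). By contrast, edgeR on recovered reads, which kept the gene, gave a log2 fold change of 2.63 (adjusted p = 0.00808). Without replicate 1, an alternative chosen after seeing the data, edgeR gave 1.55 (adjusted p = 0.0283).

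**Figure D1:**
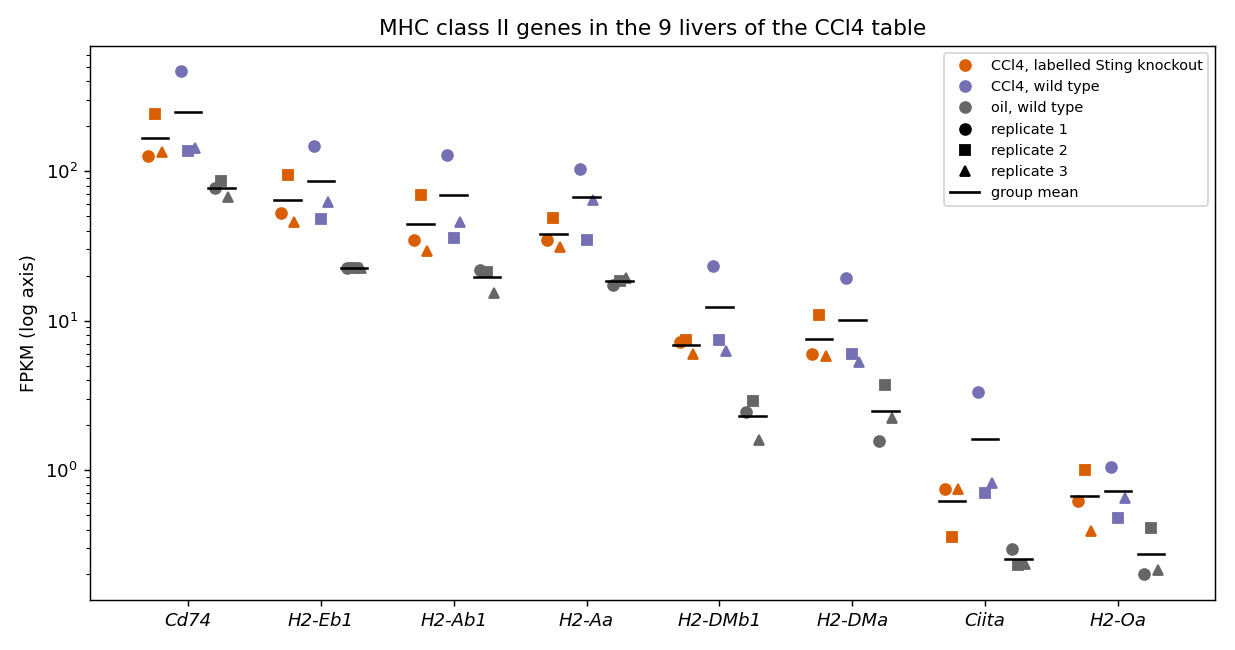
FPKM on a log axis of the 8 class II genes in the 9 libraries of the CCl4 table, with 1 point per library, a symbol per replicate number and a line at each group mean. The wild-type CCl4 points lie above the oil points for each gene, and wild-type CCl4 replicate 1 is the highest library for each gene.

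Several of these calls depended on single libraries. Without wild-type CCl4 replicate 1, 3 of the 6 genes were called by limma (H2-Aa, H2-Eb1 and H2-DMb1). The log2 fold changes of H2-Ab1 and H2-DMa were then 1.03 (adjusted p = 0.115) and 0.97 (adjusted p = 0.0825). Leaving out oil replicate 1, 2 or 3 left 2, 2 and 1 genes called. Each of the 6 fold changes stayed positive under all 11 alternatives, from 0.87 to 2.39.

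The libraries labelled Sting knockout also lay above oil. Because they were set against the same oil libraries, the values are given side by side with those of wild-type CCl4 and no overlap between the comparisons is drawn. All libraries labelled Sting knockout lay above every oil library for 7 of the 8 genes, H2-Oa being the exception. Among all genes tested, 17.8% were separated in that way. The ratio of means to oil was between 2.08 (H2-Aa) and 3.03 (H2-DMa). Of the 6 genes tested, 1 was called higher by limma, against 8.00% of all genes tested, and 0 were called lower, against 5.91%. The median log2 fold change of the 6 was 1.16, against -0.04 over all genes.

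In these libraries H2-Aa was at 34.8, 48.3 and 31.0 FPKM, H2-Ab1 at 34.6, 69.4 and 29.1 FPKM and H2-Eb1 at 52.1, 93.5 and 45.5 FPKM. Cd74 was at 127, 241 and 134 FPKM. Replicate 2 was the highest of the 3 for each of these genes, and none of the 3 libraries reached the level of wild-type CCl4 replicate 1. The lead of replicate 2 rests partly on the FPKM scale. Its implied library size was 82.3% of recovered reads, against 104% and 122% in replicates 1 and 3. In recovered reads H2-Aa was almost level, at 1127, 1170 and 1122, while Cd74 had 3088, 4389 and 3650. H2-DMa was at 6.00, 10.9 and 5.77 FPKM and H2-DMb1, the other chain of H2-M, at 7.14, 7.39 and 5.99 FPKM. For H2-DMb1 these came from 183, 142 and 172 reads, fewest in replicate 2. H2-Oa was at 0.617, 1.00 and 0.393 FPKM, which overlapped oil (exact permutation p = 0.2). Ciita was at 0.747, 0.357 and 0.748 FPKM, and here replicate 2, high for the presenting chains, was the lowest.

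Against oil, the called gene was H2-Eb1, with a limma log2 fold change of 1.39 ± 0.41 (adjusted p = 0.0493), and its adjusted p ranged from 0.0250 to 0.136 over the 11 alternatives. Leaving out any 1 of the 6 libraries compared left 0 genes called. H2-DMb1 had 1.27 ± 0.39 (adjusted p = 0.0558) and passed with a pseudocount of 0.1 (adjusted p = 0.0376, limma). The remaining 4 had log2 fold changes of 0.99 to 1.29 and adjusted p-values of 0.0742 to 0.168 by limma.

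Set directly against wild-type CCl4, the libraries labelled Sting knockout overlapped wild type for each of the 8 genes. Among all genes tested, 2.35% had every library labelled Sting knockout above every wild-type CCl4 library. The class II means lay in the other direction, and the share of genes separated below wild type is not given here. The mean of the libraries labelled Sting knockout was between 0.383 (Ciita) and 0.922 (H2-Oa) of the wild-type CCl4 mean. Without wild-type CCl4 replicate 1 it was between 0.772 (H2-Aa) and 1.34 (H2-DMa) of that mean, with 0.815 for Ciita. By limma, 0 of the 6 genes tested were called, as were 0 of 11511 genes (0%), where 366 had an unadjusted p under 0.05. By edgeR on recovered reads 0 of 14894 genes were called, and 662 had an unadjusted p under 0.05. The limma log2 fold changes ran from -0.70 ± 0.36 for H2-Aa to -0.22 ± 0.43 for H2-DMa. For H2-Aa the 95% interval by a normal approximation was -1.41 to 0.01. It is narrower than an interval from limma's own test would be. A p that misses the threshold does not show that the groups were alike. Without wild-type CCl4 replicate 1, 4 of the 6 fold changes changed sign, to 0.032 for H2-Ab1, 0.15 for H2-Eb1, 0.19 for Cd74 and 0.32 for H2-DMa. H2-Aa was then at -0.33 and H2-DMb1 near 0.

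**Figure D2:**
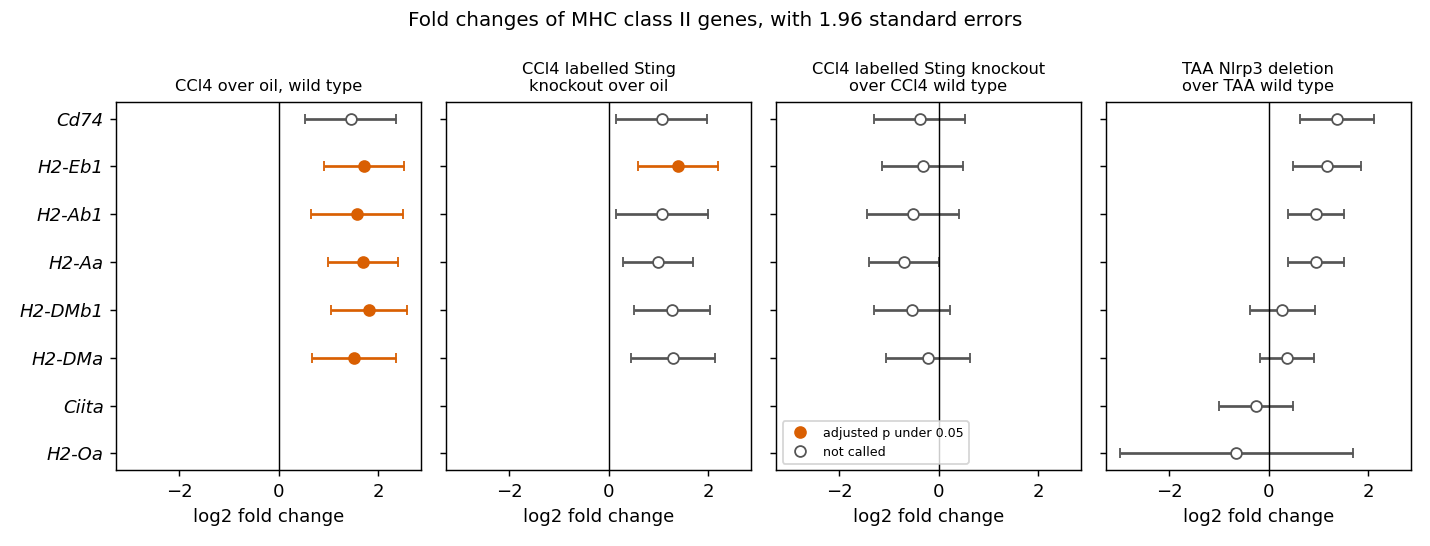
Log2 fold changes of the class II genes in 4 comparisons, with filled points where the adjusted p was under 0.05. Bars give a 95% interval from the standard error by a normal approximation, narrower than the tests would give. The first 3 panels are from limma on log2(FPKM + 1) and the last from edgeR on counts. Filled points appear for 5 genes in CCl4 over oil and for H2-Eb1 in the libraries labelled Sting knockout over oil.

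Among lysosomal genes that prepare antigen and trim the invariant chain, 4 of 10 tested were called higher after CCl4 in wild-type liver by limma and 0 lower, with a median log2 fold change of 0.69. They were Ctss, Lgmn, Ifi30 and Ctsb. Ctss, the cathepsin that cuts the invariant chain in antigen-presenting cells, was at 353, 149 and 191 FPKM after CCl4, against 28.6, 37.7 and 31.4 FPKM after oil (log2 fold change 2.70, adjusted p = 0.000672, limma). Lgmn, an asparagine endopeptidase, was at 119 ± 43.2 FPKM after CCl4 and 33.3 ± 3.67 FPKM after oil (SD, n = 3 each). Ifi30, a thiol reductase of endosomes, was at 60.0 ± 34.2 FPKM after CCl4 and 19.0 ± 1.07 FPKM after oil. Ctsl, a cathepsin with a broader range of cells, was not called, with a log2 fold change of -0.11. In the libraries labelled Sting knockout, Ctss, Lgmn and Ifi30 were called higher than oil, 3 of 10, with 134, 169 and 149 FPKM for Ctss.

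Class I genes gave 0 of 13 called in either direction after CCl4 by limma, with a median log2 fold change of 0.42. B2m, the light chain of class I molecules, was at 2212, 1450 and 1876 FPKM after CCl4, against 1509, 1959 and 2820 FPKM after oil, and the groups overlapped. H2-K1, a classical class I heavy chain, was at 791, 410 and 305 FPKM after CCl4, against 624, 687 and 584 FPKM after oil. The libraries labelled Sting knockout likewise gave 0 of 13 against oil. Whether class II and class I genes differed in their change was not tested.

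The promoter complex that CIITA joins gave 1 of 7 called lower and 0 higher after CCl4, with a median log2 fold change of -0.07. The called gene was Rfxank, a subunit of RFX, at 3.14, 2.56 and 1.83 FPKM after CCl4, against 5.17, 4.95 and 4.23 FPKM after oil (log2 fold change -0.73, adjusted p = 0.0254, limma). In the libraries labelled Sting knockout 0 of 7 were called against oil, and Rfxank was at 3.83, 4.37 and 3.99 FPKM. Of the 4 other class II genes, only H2-DMb2, a second beta chain of H2-M, passed the filter, with a log2 fold change of 0.26 after CCl4 that was not called (adjusted p = 0.498, limma). H2-Ob, the partner of H2-Oa, was at 0.908, 0.648 and 0.563 FPKM after CCl4, against 0.417, 0.606 and 0.832 FPKM after oil.

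On the interferon-gamma route to Ciita, 3 of 9 genes tested were called higher after CCl4 and 0 lower, with a median log2 fold change of 0.52. They were Spi1 and Irf8, transcription factors of myeloid cells and B cells, and Ifngr1, the ligand-binding receptor chain. Spi1 was at 26.4, 13.2 and 11.2 FPKM after CCl4, against 3.58, 5.45 and 2.68 FPKM after oil (log2 fold change 1.81, adjusted p = 0.00391, limma). Ifngr1 was at 22.4, 17.3 and 21.1 FPKM after CCl4, against 8.35, 9.32 and 8.91 FPKM after oil (log2 fold change 1.10, adjusted p = 0.00470, limma). In the libraries labelled Sting knockout, Spi1, Ifngr1 and Ifngr2 were called higher than oil.

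Several genes of this route were high in wild-type CCl4 replicate 1, and those named next were chosen after their values were seen. In wild-type liver after CCl4, Ifng had 0.680, 0.0405 and 0.0415 FPKM. Its target Irf1 had 26.8, 7.41 and 5.29 FPKM in those libraries. Socs1, a feedback inhibitor of the route, was at 4.64, 0.469 and 0.166 FPKM. Replicate 1 was thus the high library for these genes, as it was for Ciita. In the libraries labelled Sting knockout, Ifng was listed at 0 in all 3, and Irf1 was at 7.53, 7.37 and 6.13 FPKM. After oil, Irf1 was at 6.40, 9.81 and 8.31 FPKM, so the groups overlapped. The part of this route in the class II levels was not tested.

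**Figure D3:**
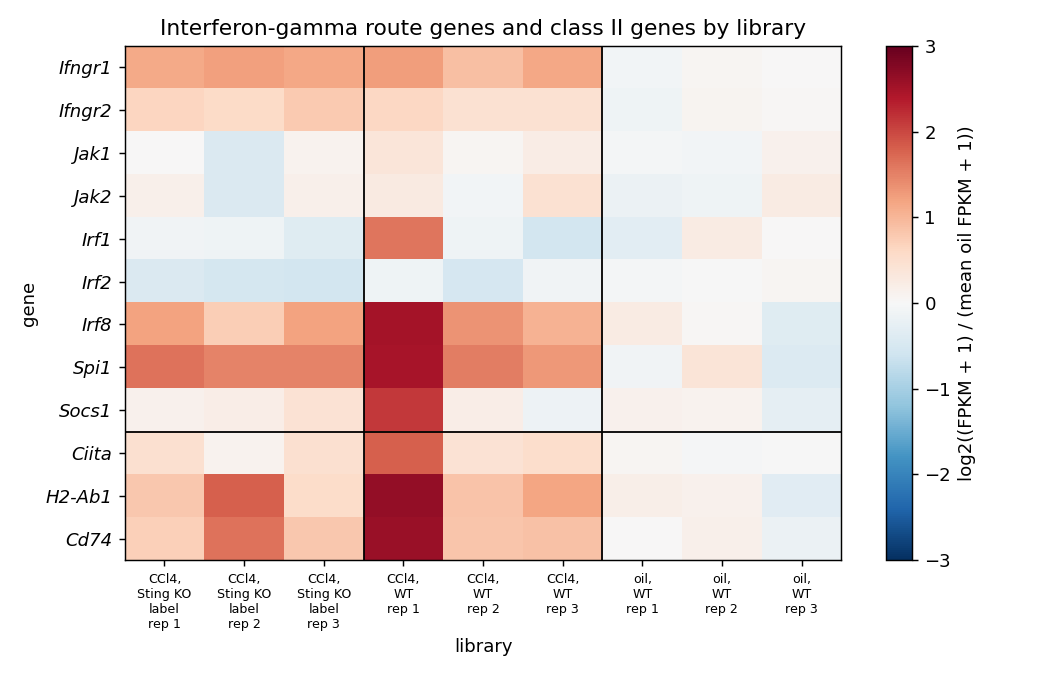
Colour gives log2 of (FPKM + 1) over (mean oil FPKM + 1) for genes of the interferon-gamma route and, below the line, Ciita, H2-Ab1 and Cd74, with 1 column for each library of the CCl4 table. Ifngr1, Irf8 and Spi1 are red in all CCl4 libraries. Irf1, Irf8, Spi1, Socs1, Ciita, H2-Ab1 and Cd74 are each darkest in wild-type CCl4 replicate 1.

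Of the costimulation genes, 2 of 6 passed the filter and 0 were called after CCl4 by limma. Cd86, which T cells read together with class II, was at 3.46, 2.28 and 5.30 FPKM after CCl4, against 1.60, 1.34 and 2.07 FPKM after oil (adjusted p = 0.0594, limma). Cd274, the inhibitory ligand PD-L1, was at 13.4, 0.998 and 3.33 FPKM after CCl4, against 0.853, 0.929 and 1.24 FPKM after oil. Replicate 1 was the high library for Cd274, and replicate 2 lay within the oil range.

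Markers of several class II-expressing cell types were higher after CCl4, as were some of other cell types, and their part in the result was not tested. Of the monocyte and macrophage markers, 9 of 9 tested were called higher after CCl4 by limma. Their 10 genes summed to 711 to 1003 FPKM after CCl4 and 117 to 158 FPKM after oil. The 4 pan-leukocyte markers were all called higher, and summed to 73.2 to 115 FPKM after CCl4 and 15.9 to 23.5 FPKM after oil. Of the dendritic cell markers 1 of 3 tested was called, Itgax, at 3.46, 3.32 and 4.10 FPKM after CCl4, against 0.520, 0.223 and 0.409 FPKM after oil. The 10 dendritic cell genes summed to 9.72 to 11.1 FPKM after CCl4 and 3.62 to 4.0 FPKM after oil. Zbtb46, a transcription factor of conventional dendritic cells, was not called, with a log2 fold change of -0.02.

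Of the B cell markers 1 of 2 tested was called, Cd79b, and the 8 genes summed to 5.56 to 9.42 FPKM after CCl4 and 2.67 to 4.2 FPKM after oil. The 4 plasmacytoid dendritic cell genes, none of which passed the filter, summed to 2.18 to 3.12 FPKM after CCl4 and 0.882 to 0.991 FPKM after oil. The 6 Kupffer cell markers had 2 called, Marco and Cd5l, and summed to 1097, 261 and 437 FPKM after CCl4 and to 153 to 249 FPKM after oil. The 8 T cell markers summed to 13.8, 2.95 and 3.13 FPKM after CCl4 and to 1.94 to 3.08 FPKM after oil. Kupffer and T cell sums were thus also highest in wild-type CCl4 replicate 1, and so was the pan-leukocyte sum. The monocyte and macrophage sum of wild-type CCl4 livers was instead highest in replicate 3. In the libraries labelled Sting knockout the leukocyte markers summed to 65.8 to 77.6 FPKM and the dendritic cell markers to 8.25 to 9.01 FPKM, both above oil. Their monocyte and macrophage markers summed to 637 to 850 FPKM, also above oil. In wild-type liver 2 of 4 stellate cell markers were called higher after CCl4 by limma. They summed to 23.7 to 25.9 FPKM after CCl4 and 11.6 to 13.1 FPKM after oil. Cholangiocyte markers had 0 of 3 called, with a median log2 fold change of 1.20. Sinusoidal endothelial markers had 1 of 5 called higher (median -0.14), and hepatocyte markers 1 of 5 called lower (median -0.43).

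Divided by the pan-leukocyte sum of the same library, the summed class II level was 3.68, 7.16 and 3.25 in the libraries labelled Sting knockout. The ratio was 7.74, 3.69 and 3.27 in the wild-type CCl4 libraries and 8.98, 7.54 and 5.45 in the oil libraries. Relative to the leukocyte markers, 2 of the 3 CCl4 libraries of either label lay below all oil libraries. Divided by the monocyte and macrophage sum, the ratio was 0.413, 0.554 and 0.393 in the libraries labelled Sting knockout, all below oil. It was 1.16, 0.380 and 0.326 in the wild-type CCl4 libraries and 1.22, 0.980 and 0.944 in the oil libraries, and these overlapped through wild-type CCl4 replicate 1. Divided by the Kupffer cell sum, the groups overlapped, at 0.580 to 1.20 in the libraries labelled Sting knockout, 0.748 to 1.03 in wild-type CCl4 and 0.622 to 0.933 in oil. These ratios are descriptions of 3 libraries a group, with no test.

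Cd74 made up 43.5% to 55.2% of the summed FPKM of the 8 genes over the 9 libraries of the CCl4 table and 43.8% to 55.1% over the 6 TAA libraries. H2-Eb1 made up 14.6% to 19.8% and 14.1% to 17.6% in these tables. Ciita made up at most 0.373% and 0.392%. Over the 9 CCl4 table libraries, pairs of the 6 genes above the filter had Pearson r of 0.886 to 0.985 on the log2(FPKM + 1) scale. These libraries fall into treatment groups, and r is given as a description only.

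The 5 other genes whose profile was most like the mean of these 6, among 11505 genes over the 9 libraries, were Ly6a (r = 0.986), Slc41a3 (0.985), Sp140 (0.984), Ubd (0.980) and Cxcl16 (0.971). Ly6a, a surface protein also known as Sca-1, was at 25.4, 44.8 and 16.6 FPKM in the libraries labelled Sting knockout. Wild-type CCl4 livers had 124, 17.9 and 24.5 FPKM of Ly6a, and oil livers 6.92, 10.3 and 8.55 FPKM. Ubd, a ubiquitin-like modifier also known as FAT10, was at 3.11, 9.55 and 4.05 FPKM in the libraries labelled Sting knockout. Ubd was at 16.8, 4.05 and 4.68 FPKM in wild-type CCl4 and at 0.776, 0.575 and 0.402 FPKM in oil. In both genes wild-type CCl4 replicate 1 was the highest library and replicate 2 was the highest of the libraries labelled Sting knockout. Cd74 had this order too, which follows from choosing these genes by likeness over the same libraries.

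Under TAA, the presenting chains and Cd74 lay higher in the livers with hepatocyte Nlrp3 deletion than in wild type, and the remaining 4 genes overlapped. All 8 genes passed edgeR's filter, and 0 were called at an adjusted p under 0.05. Over all 18619 genes tested, 1.37% were called higher, 0.360% lower and 1.73% in either direction. At an unadjusted p under 0.05 there were 5375 of these genes. The median log2 fold change of the 8 was 0.66, against -0.04 over all genes. For 4 of the 8 genes every deletion library lay above every wild-type library, where 17.5% of all genes tested did so. Values are given as CPM, counts scaled to library size with TMM factors, since deposited FPKM had a median shift of 0.33 on the log2 scale between the genotypes over 11165 genes.

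Cd74 was at 97.5, 247 and 223 CPM in the Nlrp3 deletion livers, against 51.8, 76.2 and 91.4 in the wild-type TAA livers. These came from 5534, 16878 and 17320 counts in deletion livers and 2348, 2389 and 2779 counts in wild-type livers. Its log2 fold change was 1.37 ± 0.38 (adjusted p = 0.0712, edgeR). H2-Eb1 was at 42.3, 80.4 and 84.2 CPM in the deletion livers, against 19.3, 33.8 and 38.7 in wild type (log2 fold change 1.17 ± 0.35, adjusted p = 0.0817, edgeR). H2-Aa was at 55.6, 105 and 100.4 CPM in the deletion livers, against 35.8, 48.5 and 50.8 in wild type (0.95 ± 0.28, adjusted p = 0.0829, edgeR). H2-Ab1 was at 54.6, 100.1 and 83.5 CPM in the deletion livers, against 33.0, 37.9 and 52.8 in wild type (0.95 ± 0.28, adjusted p = 0.0836, edgeR). Deletion replicate 1 was the lowest of its group for these 4 genes and lay close to the highest wild-type library. Each had an exact permutation p of 0.1, the smallest possible, in a test that used deposited FPKM and not CPM.

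Both chains of H2-M, Ciita and H2-Oa overlapped between the genotypes. H2-DMa was at 8.85, 11 and 13.7 CPM in the deletion livers, against 8.31, 6.73 and 10.9 in wild type. H2-DMb1 was at 7.91, 13.1 and 13.8 in the deletion livers, against 6.77, 8.64 and 13.5 in wild type. Both overlapped, with log2 fold changes of 0.37 ± 0.28 and 0.27 ± 0.34 (adjusted p = 0.411 and 0.621, edgeR). Ciita was at 2.48, 2.11 and 2.19 CPM in the deletion livers, against 2.01, 3.76 and 2.33 in wild type, from 71 to 170 counts. Its log2 fold change was -0.26 ± 0.38 (adjusted p = 0.685, edgeR), and it was 0.10 without wild-type TAA replicate 2. H2-Oa had 22, 40 and 50 counts in the deletion livers and 50, 45 and 0 counts in wild type (log2 fold change -0.65 ± 1.19, adjusted p = 0.749, edgeR). The transactivator transcript thus overlapped between genotypes where the presenting chains did not, and the difference between these changes was not tested.

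**Figure D4:**
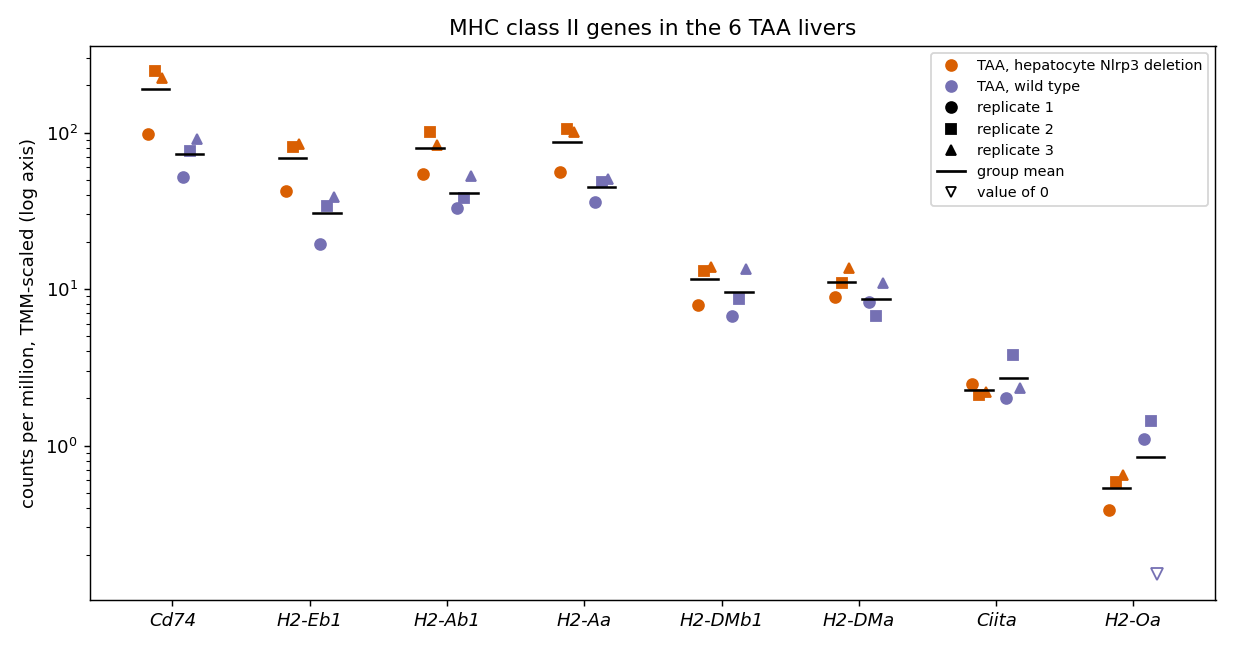
CPM with TMM factors, on a log axis, of the 8 class II genes in the 6 TAA libraries, with 1 point per library and a line at each group mean. Deletion points lie above wild-type points for Cd74, H2-Eb1, H2-Ab1 and H2-Aa and overlap them for the other genes, and the open triangle marks wild-type replicate 3 at 0 counts of H2-Oa.

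The number of class II genes called under TAA depended on the tool and on 1 library. DESeq2 called Cd74, H2-Aa, H2-Ab1 and H2-Eb1 higher, with adjusted p-values of 0.00523 to 0.0201, but it called 3640 genes in all, against 322 by edgeR. Without deletion replicate 1, edgeR called the same 4 genes and 7555 in all. Without any other single library, edgeR called 0 class II genes and at most 16 genes in all.

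Of the pathway lists under TAA, lysosomal processing had 2 of 11 called higher by edgeR and 0 lower, with a median log2 fold change of 1.05. The called genes were Ctsl, with a log2 fold change of 1.48, and Ctsh, with 1.27 (adjusted p = 0.0487 for each, edgeR). Ctsl was at 624 ± 154 CPM in the deletion livers and 223 ± 11.9 in wild type (SD, n = 3 each). Class I genes had 0 of 13 called (median 0.47), the interferon-gamma route 0 of 10 (median 0.27), the RFX and NF-Y complex 0 of 7 (median -0.32) and costimulation 0 of 5 (median 0.04). Both other class II genes tested, H2-DMb2 and H2-Ob, were not called, with log2 fold changes of -0.18 and -1.11.

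Cell type markers under TAA did not all follow the presenting chains. Of 10 dendritic cell markers 0 were called, with a median log2 fold change of -0.68, and Zbtb46 was at -1.05 (adjusted p = 0.0634, edgeR). Of 10 monocyte and macrophage markers 0 were called, with a median of 0.68 and values of 2.79 for Adgre1 and 1.80 for Lyz2 (adjusted p = 0.0604 and 0.0871, edgeR). The 8 B cell, 6 Kupffer cell, 8 T cell and 4 pan-leukocyte markers had 0 called, with medians of 1.18, 0.23, -0.14 and 0.17. Monocyte and macrophage markers summed to 139.8, 335 and 523 CPM in the deletion livers and 132 to 173 CPM in wild type. The deletion and wild-type sums overlapped for these and for pan-leukocyte markers, at 64.6 to 102 CPM in the deletion livers and 66.6 to 88.8 CPM in wild type. They also overlapped for B cell markers, at 10.0 to 12.8 CPM in the deletion livers and 8.77 to 10.5 CPM in wild type, and for Kupffer cell markers, at 165 to 325 CPM in the deletion livers and 181 to 215 CPM in wild type. Without overlap, hepatocyte markers summed to 54926 to 68142 CPM in the deletion livers and 22564 to 31210 CPM in wild type. Dendritic cell markers lay lower in the deletion livers without overlap, at 23.4 to 29.8 CPM against 40.5 to 51.3 CPM in wild type. The part of these markers in the class II values was not tested. Divided by the pan-leukocyte sum, both in FPKM of the same library, the class II sum was 6.82, 11.4 and 8.34 in the deletion livers and 3.77, 5.06 and 4.85 in wild type, without overlap and with no test. Divided by the monocyte and macrophage sum it was 2.03, 1.63 and 0.908 in the deletion livers and 1.33, 1.52 and 1.74 in wild type, which overlapped. Divided by the Kupffer cell sum it was 1.63, 2.61 and 1.55 in the deletion livers and 0.868, 1.03 and 1.45 in wild type, without overlap.

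The 5 genes most like the mean of the 6 more abundant class II genes over the 6 TAA libraries, among 11159, were Ube2d1 (r = 0.998), Cptp (0.997), Slc43a2 (0.996), Arl6ip5 (0.996) and Ccpg1 (0.995). None of these was among the 5 most like genes in the CCl4 table.

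In stimulated primary hepatocytes the class II genes were near the limit of detection. None of the 8 reached a mean of 1 FPKM over the 6 libraries. Cd74 had 18, 14 and 14 reads with MCC950, against 8, 14 and 15 reads without it, which is 0.611 ± 0.0902 FPKM with MCC950 and 0.546 ± 0.143 FPKM without (SD, n = 3 each). H2-Ab1 had 12, 17 and 18 reads with MCC950, against 12, 22 and 19 without. H2-Eb1 had 13, 3 and 12 reads with MCC950, against 0, 15 and 3 without, and H2-DMa had 3 to 5 reads with MCC950 and 1 to 8 without. H2-Aa had 1 to 5 reads per library. Groups overlapped for each of the 8 genes. Among all genes that passed the filter, which none of the 8 did, 8.88% had every MCC950 library above every library without it. That share is for genes at higher levels, and the share separated below is not given here.

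H2-Oa had 0 reads in all 6 hepatocyte libraries, where 3 reads would be 0.128 to 0.154 FPKM, the floor that a count of 0 allows per library and for counting error only. H2-DMb1 had 1 read in all and Ciita 2, both in MCC950 libraries, against floors per library of at most 0.136 and 0.0212 FPKM. No fold is given for these 3 genes. For the other 5 the ratio of means was between 0.699 (H2-DMa) and 1.43 (H2-Eb1), with exact permutation p-values of 0.4 to 0.9. The H2-Eb1 ratio was 0.953 without replicate 1 and 5.75 without replicate 2 of the group with no inhibitor. Of its 18 reads in that group, 15 came from replicate 2. With 1 library left out, the H2-DMa ratio ran from 0.497 to 1.06. Over the 9835 genes that passed the filter, limma called 0 in either direction (0%), 1168 had an unadjusted p under 0.05, and edgeR on recovered reads called 0 of 12050.

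The same hepatocyte libraries held class I genes at high levels, with B2m at 1387, 1220 and 1388 FPKM with MCC950, against 1328, 1117 and 1157 FPKM without. They also held Ifngr1 at 53.7, 52.9 and 56.2 FPKM with MCC950, against 53.7, 49.9 and 51.0 FPKM without, and the RFX and NF-Y complex, all 7 genes of which passed the filter. Ifng was listed at 0 in all 6. Pan-leukocyte markers summed to 0.120 to 0.243 FPKM with MCC950 and 0.106 to 0.144 FPKM without. Higher sums were found for the 10 monocyte and macrophage markers, at 27.4 to 34.9 FPKM with MCC950 and 28.7 to 35.9 FPKM without. Of these markers 1 passed the filter, and it was not called by limma. The 10 dendritic cell markers summed to 0.353 to 0.510 FPKM with MCC950 and 0.435 to 0.542 FPKM without. Zbtb46 was detected in all 6 libraries, at 55, 48 and 47 reads with MCC950 and 46, 51 and 59 without. Flt3, Batf3, Cd209a and Clec10a were at 0 in all 6 libraries, as were the B cell markers Ms4a1 and Ebf1. The 8 B cell markers summed to 0.0392 to 0.116 FPKM with MCC950 and 0.00761 to 0.0975 FPKM without. The 6 Kupffer cell markers summed to 0.326 to 0.476 FPKM with MCC950 and 0.0350 to 0.121 FPKM without, without overlap, and Vsig4 was at 0 in all 6 libraries. The part of these markers in the class II values was not tested. The hepatocyte markers summed to 37355 to 40313 FPKM with MCC950 and 36757 to 42489 FPKM without.

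**Figure D5:**
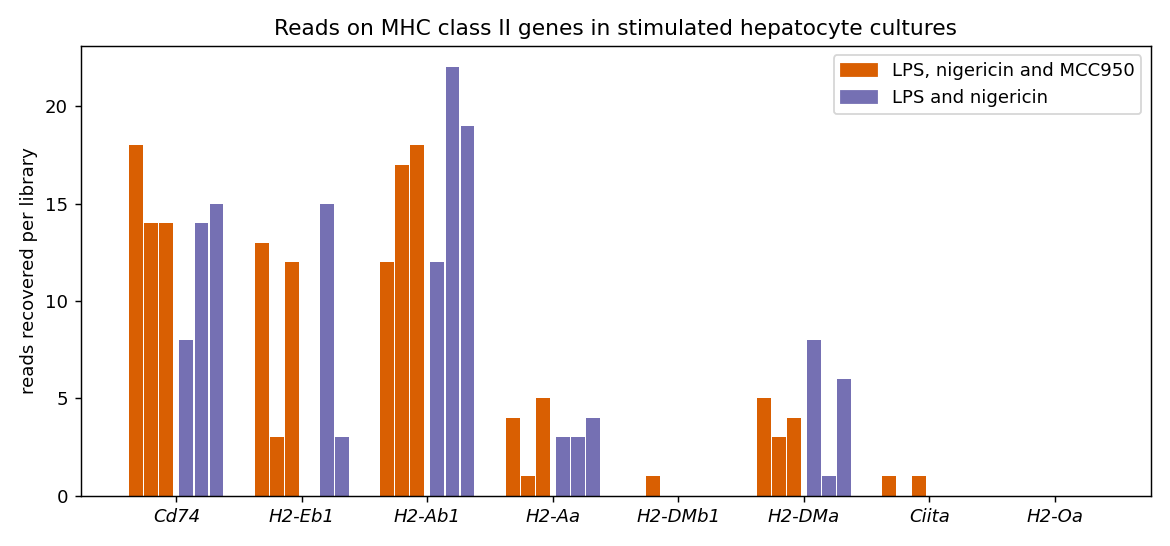
Reads recovered per library on the 8 class II genes in the 6 hepatocyte libraries, with 1 bar per library and replicates 1 to 3 from left to right. No gene exceeds 22 reads, the groups overlap for each gene, and H2-Oa has 0 reads in all libraries.

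Ordered by level within each table, Cd74 was first in the liver tables, followed by the 3 presenting chains, then both chains of H2-M, then H2-Oa and Ciita. In oil livers the means were 76.5 ± 9.27 FPKM for Cd74, 22.5 ± 0.0912 for H2-Eb1, 19.5 ± 3.69 for H2-Ab1 and 18.3 ± 0.898 for H2-Aa. They were 2.49 ± 1.08 for H2-DMa, 2.30 ± 0.664 for H2-DMb1, 0.274 ± 0.116 for H2-Oa and 0.255 ± 0.0359 for Ciita (SD, n = 3). Differences smaller than the spread separated H2-Eb1 from H2-Ab1, H2-Ab1 from H2-Aa, H2-DMa from H2-DMb1 and H2-Oa from Ciita. Cd74 stood clear of the presenting chains, and these stood clear of H2-M. Values from different tables were not compared, because the tables were normalized separately.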

How the data were processed

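Sequencing of TRIzol-extracted RNA gave 21 mouse libraries, grouped by genotype and treatment as labelled. No label ties replicates to separate animals or cultures. P-values therefore cover the spread between these libraries, which may be technical. The submitters' processing notes name HISAT2 2.2.1, featureCounts 1.5.0-p3 and mm10. Strand and poly-A selection are not given in the sources used here, so reads from a gene and an overlapping antisense gene cannot be told apart. Per the file headers, the authors deposited raw counts and FPKM for TAA livers, and FPKM with gene lengths in the other 2 tables. Reads recovered from FPKM and length were whole, within 0.05, for 99.99% of values in the CCl4 table and 99.96% in the hepatocyte table.

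Groups were compared within a table. FPKM tables used limma 3.58.1 (trend) on log2(FPKM + 1), after a filter on mean FPKM (1 or more), with the 9 libraries of the CCl4 table in 1 fit. TAA counts used edgeR 4.0.16 (quasi-likelihood, TMM, filterByExpr), in R 4.3.3. Tests were two-sided, Benjamini-Hochberg adjusted over all genes tested, and checked on simulated data. The 8 genes also had an exact permutation test of the difference in mean FPKM, in the TAA table too. Alternatives were a pseudocount of 0.1, no filter, TMM scaling or RLE factors, edgeR on recovered reads, DESeq2 1.42.0, a replicate block, each library left out and, chosen after seeing the data, nuclear coding genes alone for TAA and edgeR without wild-type CCl4 replicate 1. The class II genes, lists and motif letters were chosen with earlier results of these data known. The text names the 8 genes, up to 4 genes of each list (the called ones with the smallest adjusted p, else those with the highest mean FPKM) and the 5 genes most alike in profile, and other names were chosen after their values were seen. Values of 2 genes of these lists are not reported here.

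No label pairs libraries by replicate number, and the main fits used no pairing. Same-numbered libraries deviated together with r over 0.1 in all pairs for wild-type CCl4 with oil (r = 0.23, 0.32 and 0.52). They also did so for the Sting knockout label with wild type under CCl4 (r = 0.19, 0.18 and 0.12). For the Sting knockout label with oil, r was 0.022, 0.179 and 0.093, so this mark gave no pairing shared by all groups. Whether unpaired libraries would reach the mark was not tested.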

Additional observations from a re-analysis of the deposited data

How the results depend on the processing

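Of 8 class II genes, the number called after CCl4 against oil was 5, and 2 with no filter, 6 with TMM scaling, 7 with edgeR on recovered reads and 1 to 5 with 1 library left out. All genes called there numbered 1766, and 2790 with edgeR on recovered reads and 936 to 1427 with 1 library left out. For the label Sting knockout against oil, 1 class II gene was called, and 2 with a pseudocount of 0.1, 0 with no filter, 2 with edgeR on recovered reads and 0 with any library left out. All genes called there numbered 1601, and 2436 with edgeR on recovered reads and 781 to 1671 with 1 library left out. For the label Sting knockout against wild type under CCl4, 0 of the genes tested were called, and 2 with no filter and 0 to 1 with 1 library left out. There, with 1 library left out, the log2 fold change ran from -0.88 to 0.032 for H2-Ab1, -0.65 to 0.15 for H2-Eb1, -0.52 to 0.32 for H2-DMa and -0.69 to 0.19 for Cd74, each positive only without wild-type CCl4 replicate 1.

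For hepatocyte Nlrp3 deletion under TAA, 0 class II genes were called, and 4 with DESeq2, 2 with no filter and 0 to 4 with 1 library left out. All genes called there numbered 322, and 1 with RLE factors, 1593 with no filter, 3640 with DESeq2, 923 with nuclear coding genes alone, and 0 to 7555 with 1 library left out. Ciita ran from -0.37 to 0.10, positive only without wild-type TAA replicate 2. Nuclear coding genes alone were chosen after seeing the data. For MCC950, 0 genes were called, and 2 with no filter and 0 to 1 with 1 library left out. The cause of these changes was not tested. With the replicate block, class II calls after CCl4 against oil stayed at 5. For the label Sting knockout against oil, where r was not over 0.1 in all pairs, H2-Eb1 was then not called (adjusted p = 0.0549, limma) and H2-DMb1 was (0.0345). Under TAA, where r was not over 0.1 in all pairs either, the block gave 0 class II genes called. It gave 2 called over all 18619 genes, against 322 without it. It changed no other class II call. With 3 libraries a group, an exact test cannot go below 0.1, and the reads on class II genes in hepatocytes were too few to show a difference.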
